A study of Mus musculus with 12 samples.

Results

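The 50 genes described here belong to the cell's response to damaged DNA: 22 targets or regulators of the transcription factor p53, 16 DNA repair genes and 12 genes of the apoptosis machinery. They were taken by name from a table of 50508 gene models. The table counts UMIs (unique molecular identifiers, tags that stand for captured transcript molecules), and 26350 of its gene models had any. Their counts were summed per plate over wells with at least 1000 UMIs and at least 500 detected genes. The p53 target Cdkn1a is not among the 50 and serves below only as a reference. All 50 members had a row in the table and at least 1 UMI in the retained wells.

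Single cells had been sorted into 96-well plates from adult intestinal LMMP tissue of C57BL/6 mice, the outer muscle coat with the attached myenteric plexus, whose neurons and glia control gut movement. Every cell carried the red reporter label Dclk1-tdTom, so that only cells marked through Dclk1 are described. Surface CD49b, an integrin chain, divided the cells into a CD49b- gate, named neuronal in the labels, and a CD49b+ gate, named glial. All mice, controls included, had received 3 mg tamoxifen, at an age of 8 weeks (replicate 1 of both treatments and homeostasis replicate 3) or 9 weeks (the others), and all tissue was taken 10 days later. In the homeostasis groups nothing else was done, and in the irradiated groups 10.5 Gy was given 7 days after tamoxifen, which is 3 days before collection. Each of the 4 groups (CD49b- or CD49b+, homeostasis or irradiated) had 3 plates, and each plate came from a pool of 2 mice that supplied both gates. The p-values below therefore measure the spread between plates from pools of mice. Those between the gates treat both plates of a pool as independent, unless the pool is named as a block.

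After a DNA break the kinases ATM and ATR, with sensors such as the RAD50 complex, mark the break and stabilise p53, which is otherwise degraded through MDM2. p53 then switches on genes that halt the cell cycle, limit growth signalling, help repair or favour death, among them Btg2, Ccng1, Sesn1, Bax and Fas. Whether a cell dies depends on the balance between BCL2 proteins that open the mitochondrial outer membrane, such as BAX, and those that keep it closed, such as BCL2 and MCL1. Mature neurons are known to be resistant to death and do not divide.

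Promoter windows from RefSeq (build GRCm38.p6), from 250 bases before to 50 bases after a transcript start, were held for 40 of the 50 members. They were searched for the p53 response element, which consists of 2 copies of a 10-base motif with 0 to 13 bases between them. The element is its own reverse complement, so that a single scan covers both strands. A match with at most 1 mismatch in its 20 bases lay in a window of 4 of 16 p53 target members and of 0 of 12 DNA repair and 0 of 12 apoptosis members, against 1.24% of all 26742 genes with a window. The 4 stretches are printed because they are the member promoters closest to the element, and because Rps27l and Ccng1 are among the members with differences described below. Capitals mark the 10-base motifs; each line runs 5′ to 3′ on the strand of the gene.
Rps27l, chr9:66946256-66946355, plus strand: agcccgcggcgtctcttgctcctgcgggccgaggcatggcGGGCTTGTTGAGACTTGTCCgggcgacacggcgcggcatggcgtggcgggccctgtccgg
Ccng1, chr11:40755422-40755521, minus strand: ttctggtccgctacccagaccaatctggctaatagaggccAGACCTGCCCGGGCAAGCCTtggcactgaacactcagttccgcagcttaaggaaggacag
Bax, chr7:45467050-45467148, minus strand: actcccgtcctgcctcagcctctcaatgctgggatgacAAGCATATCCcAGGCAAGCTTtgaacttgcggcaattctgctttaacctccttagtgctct
Polk, chr13:96519358-96519437, minus strand: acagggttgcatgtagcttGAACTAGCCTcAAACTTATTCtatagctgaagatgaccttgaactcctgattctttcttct
The matches ended 97 bases (Rps27l), 175 bases (Ccng1), 191 bases (Bax) and 210 bases (Polk) before a RefSeq transcript start, and held 0 exon bases in the GENCODE vM21 annotation. Those of Rps27l and Polk lay inside the annotated gene, before an internal start, and those of Ccng1 and Bax lay upstream of the gene. A match is a description of the letters and no evidence of binding. With 2 mismatches allowed, 6 of 16 p53 target members, 0 of 12 DNA repair and 0 of 12 apoptosis members held a match (15% of the members with a window), against 11.5% of all genes.

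The 964 retained wells of 1150 held 5119450 UMIs. CD49b- plates held 541729 to 746674 retained UMIs and CD49b+ plates 150561 to 243340, so that values in CD49b+ cells are less precise. All plates use the same 96 well barcodes. The gates followed their labels: summed glial markers reached 27287 to 36366 CPM (UMIs scaled to a common plate total, here over all retained UMIs) on CD49b+ plates against 478 to 790 on CD49b- plates, and summed neuronal markers 8653 to 11259.8 on CD49b- plates against 138 to 202 on homeostasis CD49b+ plates. Irradiated CD49b+ plates 1 and 2 stood apart, with neuronal markers at 1587 and 1101 CPM, while plate 3 had 179 CPM. On these plates 1 and 2 wells, respectively, had markers against their gate, with 13.4% and 10.2% of the plate's UMIs, and homeostasis CD49b- plate 3 had 2 such wells with 2.14%. The gate calls, the CD49b+ change of Rps27l and the number of irradiation calls in CD49b+ are also given without these wells. Levels of single genes, summed levels of the lists and figures include them. Irradiated CD49b+ plates 1 and 2 still had 594 and 512 CPM of neuronal markers once the wells were left out. A list of 8 macrophage markers had 358 to 689 CPM on homeostasis and 530 to 1468 CPM on irradiated CD49b+ plates. Cd74 gave 835 of the 839 UMIs of this list in CD49b+ cells, and Csf1r, Ptprc, Adgre1 and C1qa had 0 UMIs on all 6 CD49b+ plates. Its part in the irradiation results in CD49b+ cells was not tested. Smooth muscle markers had 139 to 459 CPM on CD49b+ plates and 6.55 to 18.3 CPM on CD49b- plates, other than irradiated CD49b- plate 1 with 183 CPM. Fibroblast markers had 78.1 to 201 CPM on CD49b+ plates. On CD49b- plates they had 0 to 20.3 CPM, other than replicate 3 with 396 CPM in homeostasis and 288 CPM after irradiation. The part of these cells in the results was not tested.

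Enough UMIs for a test were found for 21 members: 10 of 22 p53 targets (Mdm2, Ccng1, Btg2, Plk2, Sesn1, Zmat3, Rps27l, Fas, Phlda3 and Bax), 5 of 16 DNA repair genes (Atm, Rad50, H2afx, Xrcc6 and Parp1) and 6 of 12 apoptosis genes (Bad, Bcl2, Bcl2l1, Mcl1, Xiap and Diablo). The other 29 had 3 to 112 UMIs over all 12 plates and are described by their counts. Levels of single genes are CPM after TMM normalisation over the tested genes, listed for plates 1, 2 and 3, and differences are log2 fold changes from edgeR's quasi-likelihood test, called at a Benjamini-Hochberg adjusted p under 0.05 over 8555 genes.

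Between the gates, 12 of the 21 tested members differed: 7 were higher in CD49b+ and 5 lower. Of all tested genes 62.1% differed (29.6% higher and 32.4% lower), so the members' count is near that of any gene. A gene enters the test by reaching a minimum level, 25.5 CPM of all retained UMIs, on at least 3 plates. Of the 12 calls, 8 were of genes that did so within 1 gate only, the one where they are high: Ccng1, Fas, H2afx, Bcl2 and Mcl1 through CD49b+, and Atm, Rad50 and Xiap through CD49b-. The direction of these 8 is no separate result, since of the 3579 tested genes of this kind 2781 were called (77.7%), all of them higher in the gate through which they entered. The p-values, pool counts and plate overlaps given below for these 8 carry the same limit. Of the 12 members that reached the minimum in both gates, 4 were called (Btg2 and Rps27l higher, Plk2 and Diablo lower), against 53.6% of all such genes. Over 6 against 6 plates the gates did not overlap for 6 of the 21 tested members, all of them among the 12 called. Btg2, Fas, Bcl2 and Mcl1 lay above and Plk2 and Diablo below. Among all tested genes 35.3% did not overlap (16% higher and 19.4% lower). Counts of pools that share a direction, here and for untested members, are description only. The share of all genes that go the same way in every pool is not given. Leaving out the 5 wells with markers against their gate kept 11 of the 12 calls and lost that of Xiap.

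Among the p53 targets, Btg2, which restrains proliferation and is also an immediate early gene, had 274, 567 and 486 CPM on homeostasis and 433, 272 and 298 CPM on irradiated CD49b- plates. On CD49b+ plates Btg2 had 3100.2, 1465 and 1984 CPM in homeostasis and 3175, 2335 and 2538 CPM after irradiation. Every CD49b+ plate lay above every CD49b- plate, and the log2 difference was 2.65 (SE 0.212, edgeR adjusted p = 1.73e-10). With each well thinned to 1000 UMIs, Btg2 was seen in 24.0% and 24.4% of CD49b- wells and in 68.2% and 76.5% of CD49b+ wells (homeostasis and irradiated); the unthinned shares were 63.4%, 63.2%, 84.8% and 89.7%. A list of 8 dissociation and immediate early genes, Btg2 not among them, was also higher in CD49b+, at 14956 to 22405 CPM of all UMIs on CD49b+ and 2245 to 3633 on CD49b- plates, and its part in the result was not tested.

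Fas, a death receptor, was nearly absent from CD49b- cells, with 1 UMI in 528 wells, against 42 UMIs in 436 CD49b+ wells. Its CD49b+ levels were 71.1, 22.2 and 10.7 CPM in homeostasis and 48.5, 42.5 and 47.6 CPM after irradiation, so that every CD49b+ plate had the transcript and 5 of 6 CD49b- plates had none. From UMIs pooled over plates and scaled by the TMM-normalised plate totals, Fas was 146-fold higher in CD49b+ cells (exact 95% counting interval 24.8 to 5892, counting error only). The log2 difference estimated by edgeR was 6.25 (adjusted p = 2.72e-07).

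Ccng1, which encodes cyclin G1 and feeds back on p53, had 5.02 to 14.4 CPM on the 6 CD49b- plates. On CD49b+ plates its levels were 47.4, 27.7 and 10.7 CPM in homeostasis and 6.06, 61.5 and 34.0 CPM after irradiation, which scatter widely and overlap the other gate. It was higher in 4 of 6 pools, with a log2 difference of 1.75 (SE 0.489, edgeR adjusted p = 0.00362), and without irradiated CD49b+ replicate 2 the adjusted p was 0.0581. Rps27l, a ribosomal protein paralog that p53 induces, was higher in CD49b+ by 0.59 (SE 0.145, adjusted p = 0.00112) and in 6 of 6 pools. Plk2, a polo-like kinase, went the other way: CD49b- plates had 80.7, 134, 116 and 58.0, 53.8, 96.7 CPM, and CD49b+ plates 41.5, 11.1, 32.2 and 30.3, 28.4, 47.6 CPM. It was lower in 6 of 6 pools, by -1.49 (SE 0.302, adjusted p = 1.80e-04). Mdm2, Sesn1, Zmat3, Phlda3 and Bax did not pass, with differences from -0.34 (Zmat3) to 0.36 (Mdm2); for Bax, the pore-forming BCL2 protein, the 95% interval was -0.30 to 0.52. The exons of Bax overlap Gm45808 on the same strand and 11.1% of its 31-base words occur in other genes, so its count is uncertain too.

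Of the DNA repair genes, Atm, the kinase that signals double-strand breaks, had 26.3, 33.5 and 14.4 CPM in homeostasis and 43.5, 52.3 and 46.8 CPM after irradiation on CD49b- plates. CD49b+ plates had 5.93, 22.2 and 0 CPM, and 12.1, 14.2 and 0 CPM, from 10 UMIs in all. Atm was lower in CD49b+ in 6 of 6 pools, by -1.83 (SE 0.499, adjusted p = 0.00299). Rad50, part of the complex that holds broken ends, was also lower in 6 of 6 pools, by -1.22 (SE 0.416, adjusted p = 0.0141), from 13 UMIs in CD49b+ cells. H2afx, the histone variant that is phosphorylated at breaks, was higher in 5 of 6 pools, by 1.07 (SE 0.344, adjusted p = 0.00993), and lost its call without homeostasis CD49b+ replicate 2 (adjusted p = 0.0593). Of the 31-base words of H2afx 8.86% occur in other genes, mainly Hist1h2ai and Hist1h2aj, so its count is uncertain. Xrcc6, the smaller Ku subunit of end joining, and Parp1, which senses nicks, differed by 0.20 and -0.06 with 95% intervals of -0.63 to 1.04 and -0.96 to 0.85.

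The anti-apoptotic genes differed in direction: Bcl2 and Mcl1 were higher in CD49b+, Xiap was lower and Bcl2l1 did not pass. Bcl2 had 29.8, 6.69, 23.0 and 35.2, 14.5, 23.4 CPM in homeostasis and after irradiation in CD49b-. In CD49b+ it had 154, 155, 113 and 158, 56.7, 136 CPM, a log2 difference of 2.53 (SE 0.310, adjusted p = 2.32e-07). Mcl1, whose protein turns over fast, had 21.8 to 31.8 CPM on CD49b- plates and 95.2 to 202 CPM on CD49b+ plates, a difference of 2.51 (SE 0.238, adjusted p = 3.53e-09). Both were higher in 6 of 6 pools and without overlap between gates. Xiap, an inhibitor of caspases, was lower in 6 of 6 pools, by -0.86 (SE 0.355, adjusted p = 0.0393), but not with the mouse pool as a block (adjusted p = 0.0614). Bcl2l1, which encodes BCL-XL, differed by -0.04, with a 95% interval of -0.53 to 0.44.

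Diablo, a mitochondrial protein that releases caspases from XIAP, had the largest negative difference among the tested members. CD49b- plates had 435, 458, 447 and 315, 395, 415 CPM, and CD49b+ plates 83.0, 117, 75.1 and 164, 109, 88.4 CPM. The difference was -1.96 (SE 0.183, adjusted p = 2.50e-09), and in thinned wells Diablo was seen in 34.4% and 32.7% of CD49b- and 10.8% and 8.45% of CD49b+ wells (unthinned 90.5%, 86.5%, 17.5% and 18.3%). Its exons overlap Gm49027 on the same strand and B3gnt4 on the other, and 18.5% of its 31-base words occur in other genes, so its count is uncertain. The 1 and 2 wells with neuronal markers on irradiated CD49b+ plates 1 and 2 held 10 of 27 and 7 of 23 Diablo UMIs. Bad, a pro-apoptotic BH3-only protein, did not pass (-0.44, 95% interval -0.95 to 0.07).

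**Figure D1:**
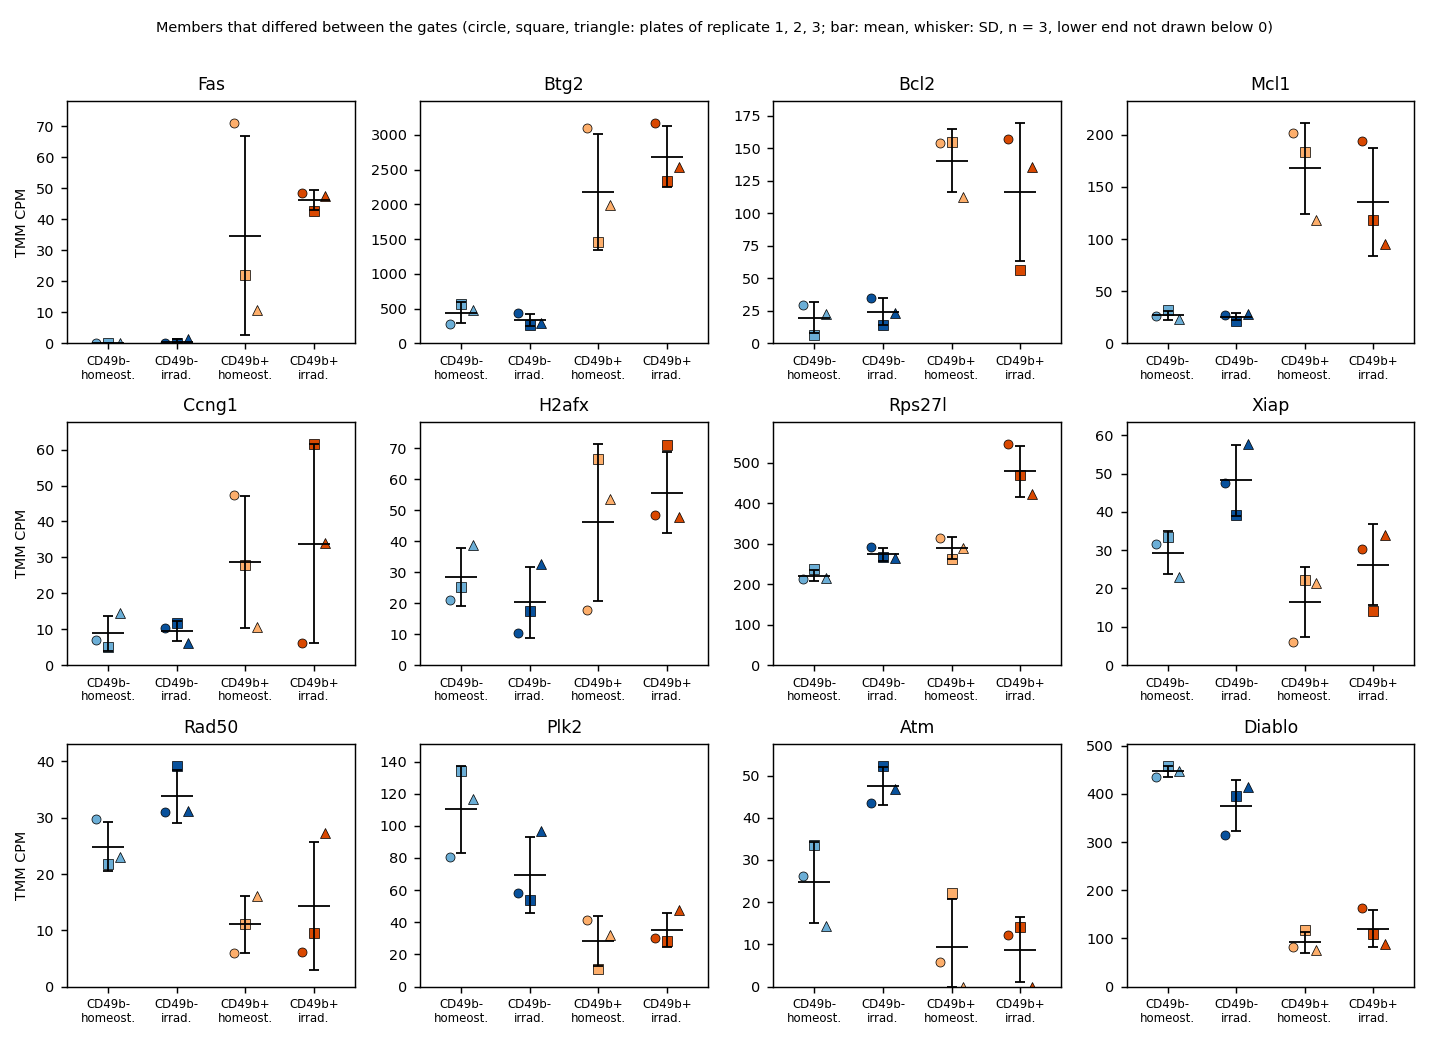
TMM-normalised CPM (vertical axes, each from 0) of the 12 members that differed between the gates, by plate in the 4 groups; symbols are plates, bars the mean and whiskers the SD over 3 plates. Btg2, Fas, Bcl2 and Mcl1 lie higher on all 6 CD49b+ plates, Plk2 and Diablo lower, and the gates overlap for the other 6, Ccng1, Rps27l, Atm, Rad50, H2afx and Xiap.

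In CD49b+ cells irradiation called 0 of the 21 tested members in either direction, against 61 of 8555 genes (0.713%; 0.666% higher and 0.0468% lower); at an unadjusted p under 0.05 there were 2 members, Rps27l and Sesn1, and 10.6% of all genes. Rps27l had 314, 261 and 289.6 CPM in homeostasis and 545, 468 and 422 CPM after irradiation. It was the one tested member whose irradiated CD49b+ plates did not overlap those of homeostasis, where 10.9% of all tested genes did not overlap (6.72% higher and 4.21% lower). Its log2 change was 0.73 (SE 0.214, 95% interval 0.29 to 1.18), with an edgeR adjusted p of 0.131 and an unadjusted p of 0.00226. DESeq2 called Rps27l (adjusted p = 0.0269) and no other member, among 3.29% of the 3409 genes for which it gave an adjusted p; over all alternatives the adjusted p ranged from 0.0269 to 0.625. In thinned wells Rps27l was seen in 20.6% of homeostasis and 39.0% of irradiated CD49b+ wells, and in 16.4% and 21.1% of CD49b- wells (unthinned 49.3%, 64.8%, 74.4% and 80.8%). Of its 31-base words 16.1% occur in other genes, mainly the pseudogene models Gm35106 and Gm14706, so reads may be shared.

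Only replicate 1 of the treatments shared a position in the plate series (set A); irradiated replicates 2 and 3 and homeostasis replicates 2 and 3 formed sets of 1 treatment each, and whether these are runs is not given. Within set A, Rps27l went from 314 to 545 CPM in CD49b+ and from 212 to 292 CPM in CD49b-. Without the 5 wells with markers against their gate the CD49b+ change of Rps27l was 0.76.

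Sesn1, a stress protein that restrains mTORC1, had 5.93, 27.7 and 21.5 CPM on homeostasis and 18.2, 70.9 and 68.0 CPM on irradiated CD49b+ plates, with overlap, from 10 and 28 UMIs. Its change of 1.49 (SE 0.606, 95% interval 0.24 to 2.75) had an edgeR adjusted p of 0.338. Phlda3, which blocks AKT at the membrane, had 53.3, 44.4 and 59.0 against 176, 33.1 and 74.8 CPM; its change of 0.81 was -0.06 without irradiated CD49b+ replicate 1. Bax had 124, 72.1 and 161 against 218, 132 and 163 CPM (0.51, 95% interval -0.13 to 1.15). Mdm2, the main negative regulator of p53, had 11.9, 11.1 and 37.5 against 30.3, 14.2 and 61.2 CPM (0.69, 95% interval -0.70 to 2.09). Fas, Btg2, Plk2 and Ccng1 had values between 0.30 and 0.43, and Zmat3 -0.26. The estimate was thus above 0 for 9 of 10 tested p53 targets, with a median of 0.47, where 4902 of all 8555 tested genes were above 0, with a median of 0.09. Fas reached the minimum of the test on 4 plates, all CD49b+ and every irradiated one among them. Mdm2 reached it mostly on irradiated plates, so the sign of both is favoured by that filter. Among 15 other tested p53 targets that are not members, Cdkn1a included, 8 estimates were above and 7 below 0, with a median of 0.04. Without TMM scaling the median of all genes in this comparison was -0.02. In the test as reported, the intervals of all these targets except Rps27l and Sesn1 included 0.

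The 5 tested DNA repair genes had a median change of 0.02 in CD49b+ and estimates from -0.62 (Xrcc6) to 0.29 (H2afx). The 6 apoptosis genes had a median of -0.30, from -0.56 (Bad) to 0.57 (Xiap). The 14 other tested DNA repair and 14 other tested apoptosis genes that are not members had medians of 0.38 and -0.03. The anti-apoptotic genes Bcl2, Bcl2l1 and Mcl1 had -0.30, -0.54 and -0.30, with intervals that included 0. In counts simulated at the depth of these plates, the CD49b+ test found 51 of 100 genes with a 4-fold change and 17 of 100 with a 2-fold change.

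In CD49b- cells irradiation also called 0 of the 21 tested members in either direction, against 4 of 8555 genes (0.0468%). At an unadjusted p under 0.05 there were 2 members, Atm and Plk2, against 4.14% of all genes, and the DESeq2 fit called 0 members too. Atm had 26.3, 33.5 and 14.4 CPM in homeostasis and 43.5, 52.3 and 46.8 CPM after irradiation, which did not overlap. The estimate was 0.96 (SE 0.424, 95% interval 0.08 to 1.83) and did not pass (edgeR adjusted p = 1, unadjusted p = 0.0335). Atm reached the minimum of the test on 4 CD49b- plates, every irradiated one among them, and on 0 CD49b+ plates. Its direction, interval and lack of overlap are therefore favoured by that filter and are no separate result. Within set A the Atm levels were 26.3 and 43.5 CPM. Plk2 had 80.7, 134 and 116 against 58.0, 53.8 and 96.7 CPM, with overlap (-0.66, unadjusted p = 0.0342).

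Plates of the treatments did not overlap for 7 of 21 tested members in CD49b-: Rps27l, Atm, Rad50, Xrcc6 and Xiap were higher on irradiated plates, and Bcl2l1 and Diablo lower. Among all tested genes 12.8% did not overlap (6.45% higher and 6.34% lower). Rad50, like Atm, would not have entered the test without the irradiated CD49b- plates, so the direction of both is favoured by that filter. Xrcc6 reached the minimum in CD49b- on irradiated plates only, but also on 3 CD49b+ plates. Rps27l had 212, 236 and 214 against 292, 266 and 264 CPM (0.31, 95% interval -0.09 to 0.71). Rad50 had 29.8, 21.7 and 23.0 against 31.1, 39.3 and 31.2 CPM (0.45, 95% interval -0.34 to 1.25). Xrcc6 had 19.3, 26.8 and 25.9 against 31.1, 33.4 and 28.1 CPM (0.36, 95% interval -0.58 to 1.29), and Diablo, with levels given above, had an estimate of -0.25 (95% interval -0.68 to 0.18). Xiap had 31.6, 33.5 and 23.0 against 47.7, 39.3 and 57.7 CPM (0.72, 95% interval -0.01 to 1.44). Bcl2l1 had 80.7, 82.0 and 93.5 against 53.9, 53.8 and 67.0 CPM (-0.55, 95% interval -1.11 to 0.02). None of these differences passed the test, and the p53 targets had a median of -0.01, with 5 of 10 above 0. For CD49b- the same simulation found 89 of 100 genes with a 4-fold change and 39 of 100 with a 2-fold change.

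**Figure D2:**
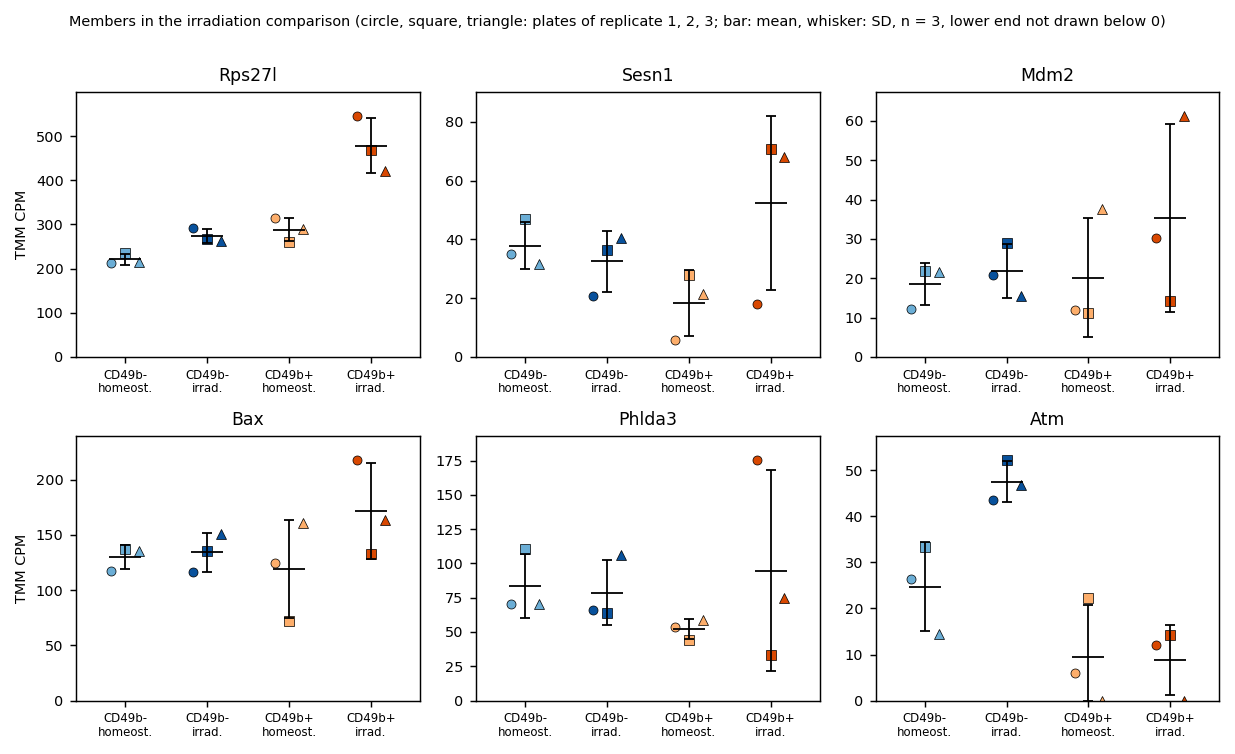
TMM-normalised CPM (vertical axes, each from 0) of 6 members by plate in the 4 groups; symbols are plates, bars the mean and whiskers the SD over 3 plates. Irradiated plates lie above homeostasis plates without overlap for Rps27l in both gates and for Atm in CD49b-, and the high Phlda3 mean in irradiated CD49b+ rests on plate 1 with 176 CPM. Atm entered the test through irradiated CD49b- plates.

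**Figure D3:**
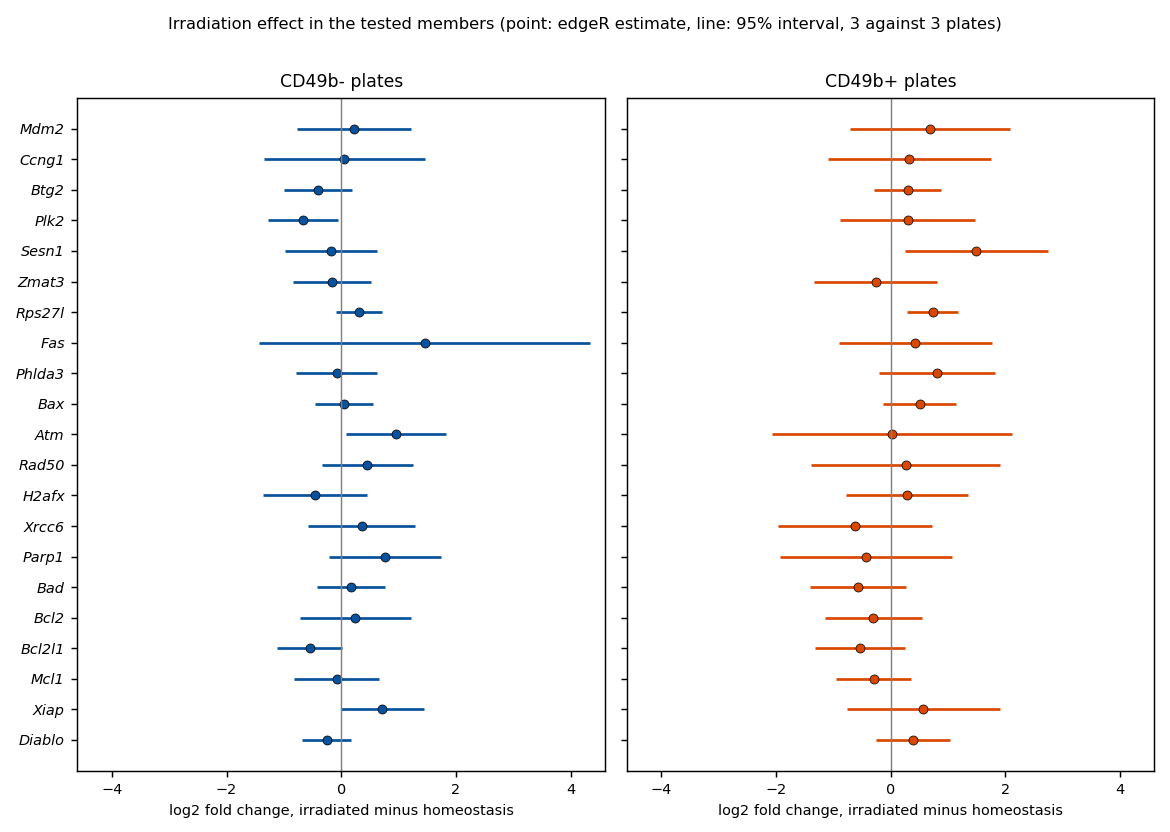
Estimated log2 change with irradiation (horizontal axis) for the 21 tested members in CD49b- (left) and CD49b+ plates (right), with approximate 95% intervals derived from the edgeR F statistic. The intervals lie above 0 for Atm in CD49b- and for Rps27l and Sesn1 in CD49b+. They lie below 0 for Plk2 in CD49b- and include 0 elsewhere. None of the changes passed the adjusted threshold, and Atm entered the test through irradiated CD49b- plates.

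The difference between the gates in their irradiation effect was called for 0 of 21 members by edgeR and for 1 of 8555 genes (0.0117%). Sesn1 was the one member with an unadjusted p under 0.05 (0.0292), with 1.68 more change in CD49b+ than in CD49b- (adjusted p = 0.591). For Rps27l the difference was 0.42 with a 95% interval of -0.17 to 1.02, so that a like change in both gates and a larger one in CD49b+ are both within its error. The DNA repair genes had 4 of 5 estimates below 0, where 3677 of all 8555 genes and 6 of 14 other DNA repair genes were below 0, and their intervals all included 0; that of Atm ran from -3.29 to 1.42.

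The summed level of each list, all its members included, is given as a description without a test. The p53 targets together had 863 to 1269.8 CPM of all retained UMIs on homeostasis CD49b- plates and 911 to 1009 on irradiated ones. On CD49b+ plates they had 2083 to 3725 in homeostasis and 2897 to 3927 after irradiation. Btg2 supplied 70.1% to 80.6% of the p53 target UMIs on CD49b+ plates and 27.0% to 40.8% on CD49b- plates. Without Btg2, left out after its values were seen, the other 21 targets had 723, 605 and 778 CPM on homeostasis and 1089, 867 and 976 CPM on irradiated CD49b+ plates, which do not overlap. Rps27l supplied 154 of these 382 UMIs in homeostasis and 251 of 559 after irradiation. With Rps27l left out as well, the remaining 20 targets had 419, 342 and 494 against 601, 460.3 and 565 CPM, which overlap. On CD49b- plates the 21 targets without Btg2, Rps27l included, had 608, 752 and 659 against 606, 659 and 737 CPM, which overlap. Within set A the CD49b+ values of these 21 targets were 723 and 1089.

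The 16 DNA repair genes together had 164, 206 and 179 CPM on homeostasis and 225, 239 and 224 on irradiated CD49b- plates, without overlap, and 184, 347, 221 against 227, 160.3, 292 on CD49b+ plates. The 12 apoptosis genes had 693, 702 and 684 CPM against 569, 617 and 676 on CD49b- plates, again without overlap and here lower after irradiation, with Diablo the largest contributor of UMIs (833 of 1394 in homeostasis, 690 of 1240 after irradiation). Without Diablo the other 11 had 287, 284 and 268 against 288, 251 and 297 CPM, which overlap. On CD49b+ plates the apoptosis genes had 608, 683, 558 against 655, 407, 465, with overlap.

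**Figure D4:**
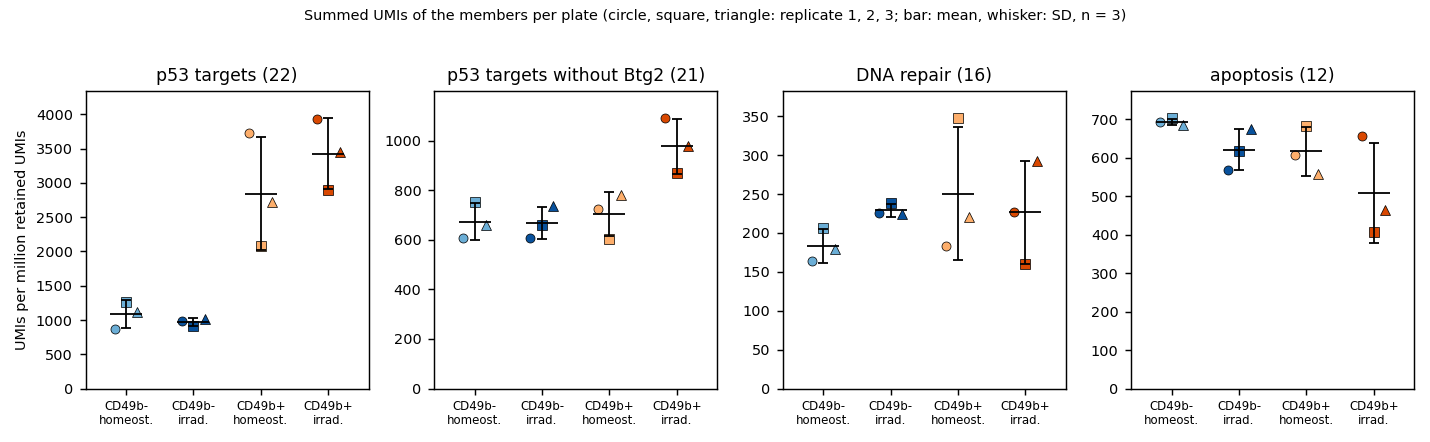
Summed CPM of the members over all retained UMIs (vertical axes, each from 0) by plate in the 4 groups, for the 22 p53 targets, the same list without Btg2, the 16 DNA repair and the 12 apoptosis genes; symbols are plates, bars the mean and whiskers the SD. Without Btg2 the irradiated CD49b+ plates lie between 867 and 1089, above the homeostasis CD49b+ plates at 605 to 778; without Rps27l as well, which is not plotted, the plates overlap.

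Among the 12 untested p53 targets, Gdf15, a secreted stress cytokine, had 0 UMIs on 9 plates and 5, 1 and 1 UMIs on the irradiated CD49b+ plates. These 7 UMIs came from 4 wells, 4 of them from 1 well, and no fold is given. Gdf15 was the one untested member whose CD49b+ plates did not overlap between treatments, where 5.56% of untested genes in the same range of total UMIs did not (2.92% higher and 2.64% lower). Trp53inp1, which promotes autophagy and death, had 1 to 3 UMIs on each CD49b- plate (10 in all) and 2 to 7 on each CD49b+ plate (25 in all), which is higher in CD49b+ in 6 of 6 pools. Perp, a membrane protein of cell junctions, had 18 and 21 UMIs in CD49b- and CD49b+ cells and had the higher level in CD49b+ in 6 of 6 pools. Rrm2b, the p53-induced subunit of ribonucleotide reductase, had 99 and 13 UMIs and was lower in 6 of 6 pools. Eda2r had 3 UMIs, all from irradiated CD49b- plates, and Pmaip1, which encodes NOXA, had 8 UMIs, all from CD49b- plates. Bbc3, which encodes PUMA, had 21 and 3 UMIs. Polk, a translesion polymerase, had 45 and 8, Plk3 23 and 7, Aen 10 and 3, Sesn2 8 and 3, and Tnfrsf10b 3 and 4 UMIs.

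Among the untested repair genes, Prkdc, the catalytic kinase of end joining, had 11 UMIs from 7 wells on irradiated CD49b+ plate 1, and 0 and 1 on the other irradiated plates of that gate. On CD49b- plates Prkdc had 2, 3 and 3 UMIs in homeostasis and 4, 6 and 6 after irradiation. Xrcc5, the partner of Xrcc6, had 3, 4 and 3 against 9, 6 and 6 UMIs on CD49b- plates. Of the 29 untested members, Prkdc and Xrcc5 had higher levels and Nbn and Apaf1 lower levels on irradiated than on homeostasis CD49b- plates without overlap. These are 4 of 29, where 8.16% of 12255 untested genes in the same range of total UMIs (4.05% higher and 4.11% lower) and 12.8% of the tested genes did not overlap. The homologous recombination genes were scarce, with 3 UMIs for Brca1 and 31 for Brca2 over all plates, as was Lig4 with 18, of which 1 came from CD49b+ cells. Atr, Mre11a, Nbn, Xrcc1, Fen1 and Msh6 had 17 to 93 UMIs and overlapped between the gates.

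Among the untested apoptosis genes, Bid, the BH3 protein cleaved by caspase 8, had 65 UMIs in CD49b- and 4 in CD49b+ cells and was lower in CD49b+ in 6 of 6 pools. Casp8 itself had 2 and 8 UMIs, with 5 of the 8 from homeostasis CD49b+ plate 3. Scaled by the TMM-normalised plate totals, this is a ratio of 13.9 (exact 95% counting interval 2.77 to 134). Casp9 and Apaf1, the apoptosome genes, had 15 and 6 and 8 and 3 UMIs, Bak1 7 and 3, and Bcl2l11, which encodes BIM, 6 and 6. With no filter on low counts edgeR called 5 further members between the gates, Trp53inp1, Perp and Casp8 higher and Bid and Rrm2b lower in CD49b+. These are 5 of 29, where 15.9% of the untested genes in the same range of total UMIs (7.53% higher and 8.39% lower) and 27% of all 26315 genes (11.9% higher and 15% lower) were called under that setting.

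**Figure D5:**
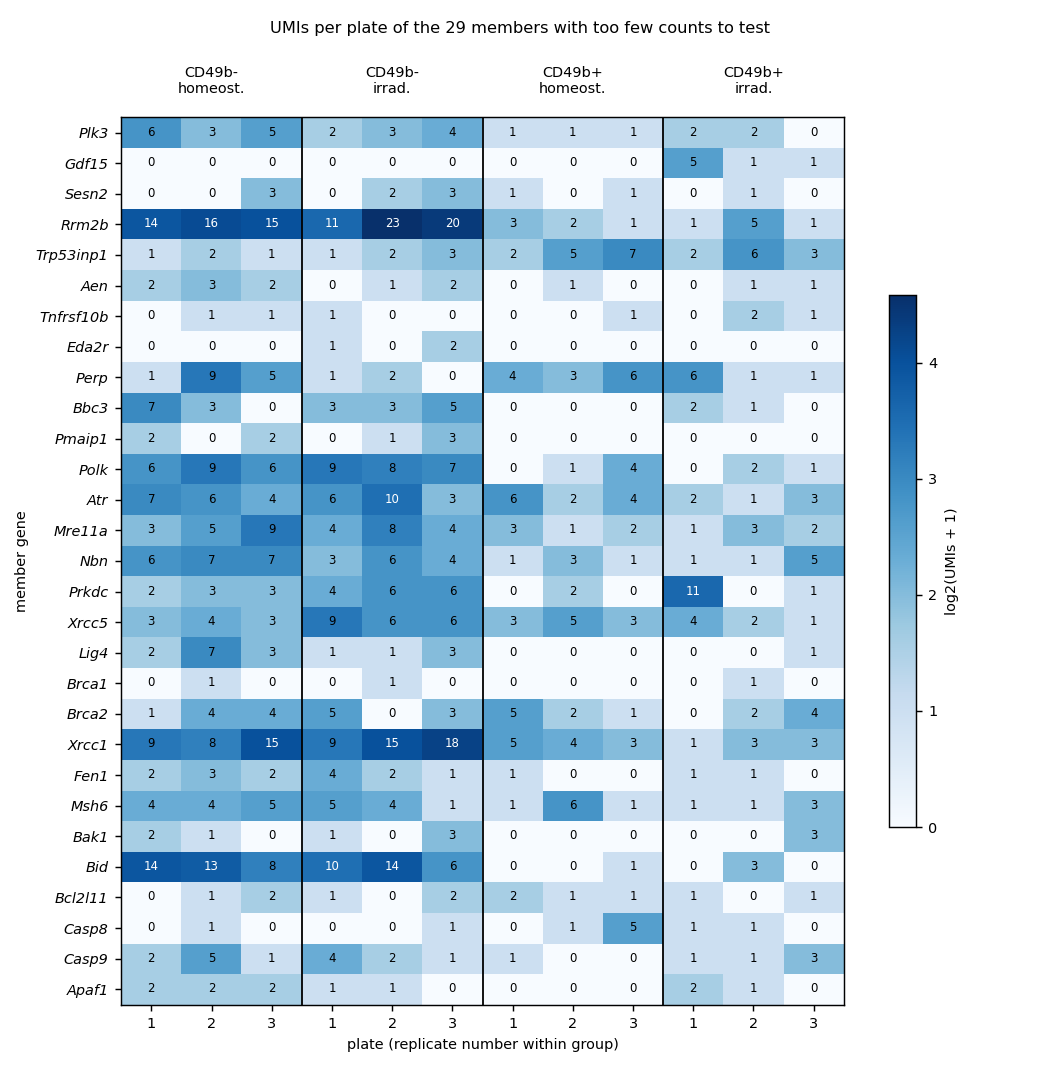
UMIs per plate (numbers, shaded by log2 of UMIs + 1) for the 29 members without a test; columns are the 3 plates of each group. Gdf15 UMIs fall on irradiated CD49b+ plates, Bid and Rrm2b UMIs mostly on CD49b- plates, and the 11 Prkdc UMIs of irradiated CD49b+ plate 1 stand out in their row.

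A further 93 genes of the same pathways were listed for reference, of which 45 were tested. Between the gates 14 of the 45 were higher and 11 lower in CD49b+, against 29.6% higher and 32.4% lower among all tested genes. Trp53, which encodes p53, was among the higher ones (0.95, SE 0.272, adjusted p = 0.00423), with 31.6 to 38.6 CPM on homeostasis CD49b- and 53.6 to 65.2 CPM on homeostasis CD49b+ plates. The executioner caspase Casp6 was higher by 3.67 and Tnfrsf1a by 1.75, and both reached the minimum of the test in CD49b+ only. Tnfrsf21, which reached it in CD49b- only, was lower by -2.13. The mitochondrial genes Vdac1, Cycs, Bnip3 and Vdac2 were lower by -1.55, -1.33, -1.81 and -0.84. Aifm1, Endog and Bnip3l, also mitochondrial, were not called (-0.57, -0.13 and -0.38). With irradiation 1 of the 45 was called in CD49b+ and 0 in CD49b-, against 0.713% and 0.0468% of all tested genes. The 1 called was Cdkn1a, which encodes the cell cycle inhibitor p21. In CD49b+ it went from 302, 77.7 and 69.7 to 764, 619 and 565 CPM (2.13, SE 0.382, edgeR adjusted p = 0.00666). In CD49b- Cdkn1a had 31.6, 10.0 and 8.63 against 41.4, 46.5 and 37.4 CPM, which do not overlap and did not pass (1.35, unadjusted p = 0.0126).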

How the data were processed

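The values are raw UMI counts per gene and well, deposited by the authors as 1 table without normalisation; per the labels, cells were lysed and reverse transcribed in the well and libraries made with Nextera XT. The submitters' processing notes name STAR 2.5.3a, featureCounts 1.5.3, GRCm38 and GRCh38 without their roles. How UMIs were collapsed, and whether counting used the strand, is not given in the sources used here.

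Wells with at least 1000 UMIs, at least 500 genes and under 20% mitochondrial UMIs were retained (the last removed 0 wells) and summed per plate. No doublet caller was run; cells were sorted singly. The gene test was that of edgeR 4.0.16 under R 4.3.3 (TMM, filterByExpr, 4 group means with 1 dispersion, quasi-likelihood F test, Benjamini-Hochberg over 8555 genes). Main fits had no pool term. The mouse identifiers in the labels pair the gates: the 2 plates of a pool had residual correlations over genes of 0.0971, 0.0431 and 0.0587 (homeostasis pools) and 0.184, 0.113 and -0.0336 (irradiated pools). Plates of different pools of the same treatment had -0.0638 to 0.0104 in homeostasis and -0.202 to 0.115 after irradiation. The irradiated values of matched and unmatched plates thus overlap. The test was checked on simulated data. Alternatives changed scaling, filters, wells, tool (DESeq2 1.42.0), blocks, or left out 1 plate. Exact intervals cover counting error only.

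The members, reference lists and markers were chosen with earlier results of these data known. The text accounts for every member, and gives levels and statistics for tested members past the threshold or not overlapping between groups, and others by counts or ranges.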

Additional observations from a re-analysis of the deposited data

How the results depend on the processing

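The 12 member calls between the gates, with 7 higher and 5 lower, kept their direction in every alternative in which the gene was tested. With wells thinned to 1000 UMIs, 5 members could be tested, and 3 were higher and 1 lower. Leaving out 1 plate at a time gave 2 lower members (without irradiated CD49b- replicate 3) to 8 (without irradiated CD49b+ replicate 1), with 16 to 30 members passing the filter on low counts. Xiap lost its call in 7 alternatives, among them the mouse pool as a block (adjusted p = 0.0614), which kept the other 11 calls. Ccng1 and H2afx each lost theirs without 1 CD49b+ plate. With irradiation, DESeq2 called 1 member as higher in CD49b+ (Rps27l), and the other 21 alternatives called 0. Blocking by pool changed no other call. The Phlda3 change in irradiated CD49b+ plates ran from -0.0559 (without irradiated CD49b+ replicate 1) to 1.27 when 1 plate was left out. Over all genes, irradiation calls in CD49b+ ranged from 4 (without homeostasis CD49b+ replicate 3) to 156 (without irradiated CD49b+ replicate 3) around the 61 reported, with 28 when the wells with markers against their gate were left out, those in CD49b- from 0 to 45 around 4, and calls of the difference between the gates from 0 to 87 (without irradiated CD49b+ replicate 3) around 1. Thinning lowered the gate calls over all genes to 1561 from 5311. Depth limits the CD49b+ values: single plates held 1 to 13 UMIs of Ccng1, and 0 to 4 of Atm. Summed levels with Btg2, Rps27l or Diablo left out were added after the data were seen.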
